A study of Homo sapiens with 6 samples.

Results

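Chromosomal DNA can be copied once per division because origins are first licensed and only later fired, and 47 genes of that machinery were followed here through the response of a pancreatic cancer cell line to a compound named CMR. The 47 were taken by symbol from a table of 58825 genes: the 6 subunits of the origin recognition complex (ORC), the licensing genes CDC6, CDT1 and GMNN, the helicase genes MCM2 to MCM7, their relatives MCM8, MCM9 and MCM10, the firing genes CDC45, CDC7 and DBF4, the 4 GINS subunits, 9 polymerase and primase subunits, the sliding clamp PCNA with its 5 loader subunits, FEN1, LIG1, the 3 RPA subunits, TIMELESS and CLSPN. All 47 symbols were found, each on a single row, and all 47 passed the filter on low counts. PANC-1 is an established human line from a ductal carcinoma of the pancreas. The cells received 8 µM CMR for 48 h in the CMR group and are labelled only as control in the other group, with 3 poly(A) RNA libraries in each. The labels give neither the full name of CMR, nor a vehicle for the controls, nor whether the replicates came from separate cultures, so p-values measure only the spread between these libraries. The RNA protocol in the labels speaks of an adipose type, while every other label names PANC-1; 4 markers of fat cells were at or below 0.138 FPKM in every library. The line is a single established line, and all libraries of both groups come from it.

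In a bulk library a lower value can mean fewer cells in a given phase or less RNA per cell, and these cannot be told apart. Replication begins with ORC, which marks origins on DNA. During G1, CDC6 and CDT1 join ORC and load MCM2 to MCM7 onto DNA as an inactive ring, which is what licensing means; geminin, the product of GMNN, binds CDT1 later in the cycle and blocks a second loading. In S phase the kinase CDC7, with an activating subunit such as DBF4, and the recruitment of CDC45 and GINS turn the ring into a working helicase. Polymerase alpha with primase lays primers, polymerase epsilon extends the leading strand and polymerase delta the lagging strand, held to DNA by PCNA, while RPA coats the single strands. Many of these genes are known targets of E2F transcription factors, which act at the passage from G1 to S.

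The promoters of the genes on which the results turn are shown first, so that the values can be read beside them. RefSeq promoter sequences of 300 bases (250 before and 50 from the transcription start on, build GRCh38.p14) were at hand for 41 of the 47 genes; MCM4, MCM5, GINS4, POLD3, RPA2 and RPA3 had none, and for the 8 genes with several listed starts the first was used. A set of 3 motifs were searched on both strands: an E2F motif written as TTTCCCGC, TTTCGCGC, TTTGCCGC or TTTGGCGC, the cell cycle homology element TTTGAA, and the CCAAT box. The whole windows below belong to MCM10, the gene with the lowest log2 fold change, to ORC4, the gene with the highest, and to the 3 licensing genes, each read 5′ to 3′ on its gene's strand with the E2F motif in capitals.
MCM10: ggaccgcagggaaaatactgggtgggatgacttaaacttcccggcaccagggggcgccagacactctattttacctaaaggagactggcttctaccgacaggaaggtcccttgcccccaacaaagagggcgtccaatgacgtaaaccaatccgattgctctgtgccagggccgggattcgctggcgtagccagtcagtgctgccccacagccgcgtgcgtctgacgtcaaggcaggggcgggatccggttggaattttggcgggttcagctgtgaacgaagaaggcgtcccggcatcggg
ORC4: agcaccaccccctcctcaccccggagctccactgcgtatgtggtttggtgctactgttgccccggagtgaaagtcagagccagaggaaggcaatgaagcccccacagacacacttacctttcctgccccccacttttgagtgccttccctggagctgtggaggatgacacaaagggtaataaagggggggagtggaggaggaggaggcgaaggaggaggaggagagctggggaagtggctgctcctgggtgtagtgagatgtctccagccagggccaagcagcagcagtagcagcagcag
CDC6: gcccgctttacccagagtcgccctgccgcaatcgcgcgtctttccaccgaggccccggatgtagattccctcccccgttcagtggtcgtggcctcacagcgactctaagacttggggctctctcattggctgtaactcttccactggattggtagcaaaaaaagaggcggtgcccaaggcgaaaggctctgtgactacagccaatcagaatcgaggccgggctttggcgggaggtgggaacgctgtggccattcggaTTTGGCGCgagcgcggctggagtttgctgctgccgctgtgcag
CDT1: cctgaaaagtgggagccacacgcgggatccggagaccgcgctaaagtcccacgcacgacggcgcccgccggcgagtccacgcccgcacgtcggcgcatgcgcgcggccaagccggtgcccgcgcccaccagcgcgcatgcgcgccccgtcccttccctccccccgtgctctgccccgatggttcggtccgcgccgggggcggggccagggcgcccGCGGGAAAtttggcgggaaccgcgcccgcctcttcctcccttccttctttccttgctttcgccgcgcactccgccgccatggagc
GMNN: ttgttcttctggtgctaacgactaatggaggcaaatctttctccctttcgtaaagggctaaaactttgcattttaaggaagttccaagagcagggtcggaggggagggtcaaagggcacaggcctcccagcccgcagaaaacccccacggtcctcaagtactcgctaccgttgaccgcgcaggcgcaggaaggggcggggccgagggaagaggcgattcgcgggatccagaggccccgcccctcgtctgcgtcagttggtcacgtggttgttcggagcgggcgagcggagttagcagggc
These windows lie at chr10:13161308-13161607 (plus strand) for MCM10, chr2:148021502-148021801 (minus strand) for ORC4, chr17:40287629-40287928 (plus strand) for CDC6, chr16:88803539-88803838 (plus strand) for CDT1 and chr6:24774687-24774986 (plus strand) for GMNN. CDC6 and CDT1 each held 1 match to the E2F motif, on the gene's strand in CDC6 and on the opposite strand in CDT1. MCM10, ORC4 and GMNN held none.

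The motif was shared by every helicase gene whose promoter was at hand, and the site nearest the start in each of these 4 genes is given with its flanks, again on the gene's strand and with the matched bases in capitals.
MCM2: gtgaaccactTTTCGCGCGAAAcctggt
MCM3: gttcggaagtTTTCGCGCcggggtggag
MCM6: gtcaggTTTGGCGCGAAAtctccagctc
MCM7: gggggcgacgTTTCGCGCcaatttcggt
They lie at chr3:127598403-127598430 (plus strand), chr6:52284729-52284756 (minus strand), chr2:135876512-135876539 (minus strand) and chr7:100101389-100101416 (minus strand). In MCM2 and MCM6 matches on both strands overlap, so that the capitals run longer. Across the set, 19 of 41 promoters (46.3%) held the E2F motif, against 1164 of 35116 promoters of the same length in the RefSeq table (3.31%) and 4.63% of the promoters of genes tested. The CCAAT box was in 24 of 41 (58.5%), against 34.6% of all promoters and 34.4% of the promoters of genes tested. TTTGAA was in 1 of 41 (2.44%), against 15.2% of all promoters and 10.5% of the promoters of genes tested. With any listed start counted in place of the first, 21 of the 41 genes held the E2F motif, against 1090 of 27305 genes (3.99%). A match describes letters in a window and is neither a bound site nor a cause.

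**Figure D1:**
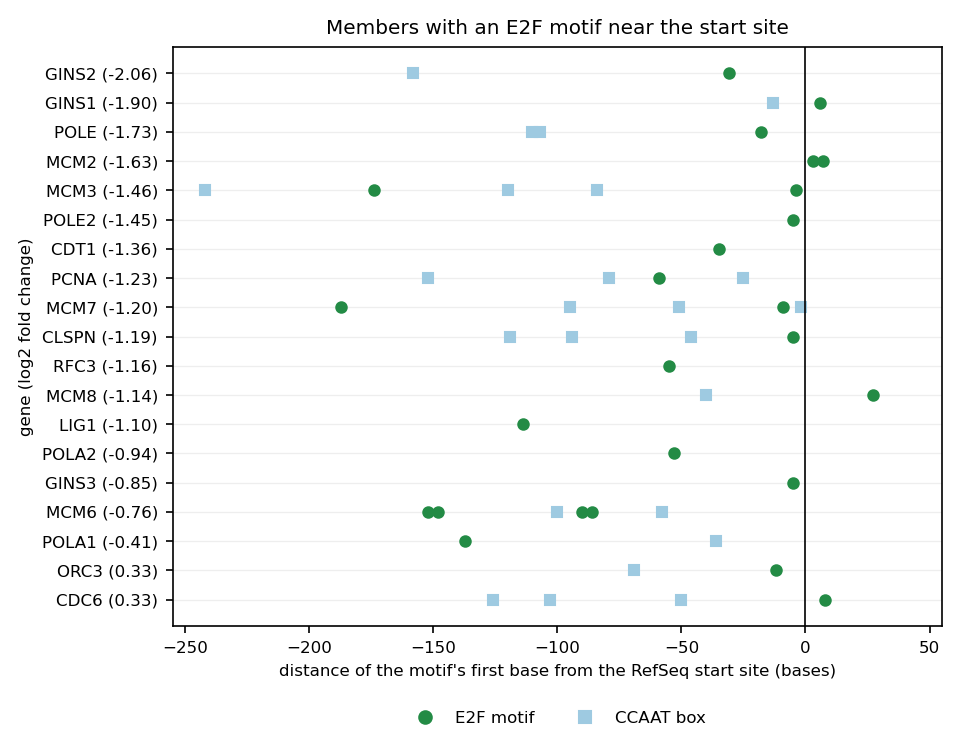
Positions of motif matches in the 300-base promoters of the 19 replication genes that held the E2F motif, 1 row per gene, with the distance from the transcription start in bases on the horizontal axis; circles are E2F matches, squares are CCAAT boxes, and the number after each gene is its log2 fold change. Genes are ordered from GINS2 (-2.06) to CDC6 (0.33), and E2F matches occur on both sides of the start.

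Most of the replication genes were lower with CMR. In the count test (edgeR's quasi-likelihood test, Benjamini-Hochberg adjustment over all 19200 genes tested, called at an adjusted p under 0.05) 39 of 47 genes were called in either direction, against 38.6% of all genes tested. Of them, 35 fell, against 18.1%, and 20 of them fell at least 2-fold, against 8.55%. CDC6, ORC4, ORC5 and MCM9 rose, 4 of 47, against 20.5% of all genes tested, and 0 of the 47 rose 2-fold, against 9.87%. The number that rose was 2 when CMR replicate 2 or 3 or any 1 control was left out, and 5 without CMR replicate 1; it was also 2 under upper-quartile scaling, with library totals alone and without a filter. The other 8 genes, ORC1, ORC2, ORC3, DBF4, POLD3, RFC1, RFC4 and RPA2, did not pass the threshold. The median log2 fold change was -0.85, a level 1.80-fold lower with CMR, against -0.01 over all genes tested, and single genes ranged from -2.60 (MCM10) to 0.80 (ORC4). The 3 CMR libraries lay below all 3 control libraries for 37 of the 47 genes, against 26.6% of all genes tested, and above them for 4, against 27.3%.

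The change was alike in the 3 CMR libraries as a whole. The median log2 difference of the 47 genes from the control mean was -0.93, -0.83 and -0.84 in CMR replicates 1, 2 and 3. Their summed FPKM, a level per length of transcript, was 870, 873 and 859 in the controls and 451, 469 and 450 with CMR. The deposited counts came to between 51147268 and 63811430 per control library and between 66460535 and 70129221 per CMR library. The epithelial markers KRT19, KRT8 and KRT18 were at 262, 173 and 210 FPKM on average in the controls and at 49.5, 45.5 and 105 with CMR, and EPCAM at 7.31 and 8.01. KRT7 and MUC1 were also called lower and CDH1 was not called. The mesenchymal markers VIM and CDH2 were at 626 and 6.30 FPKM in the controls and at 227 and 3.62 with CMR, both called lower. All 17 markers of acinar, endocrine, blood, endothelial and fat cells stayed at or below 0.138 FPKM in every library. Among these, the acinar PRSS1 was called higher, with counts of 17, 15 and 14 with CMR and 0 in every control (edgeR adjusted p = 0.0109). PECAM1 was not called, and the others did not pass the filter on low counts. The part of these marker differences in the replication results was not tested.

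**Figure D2:**
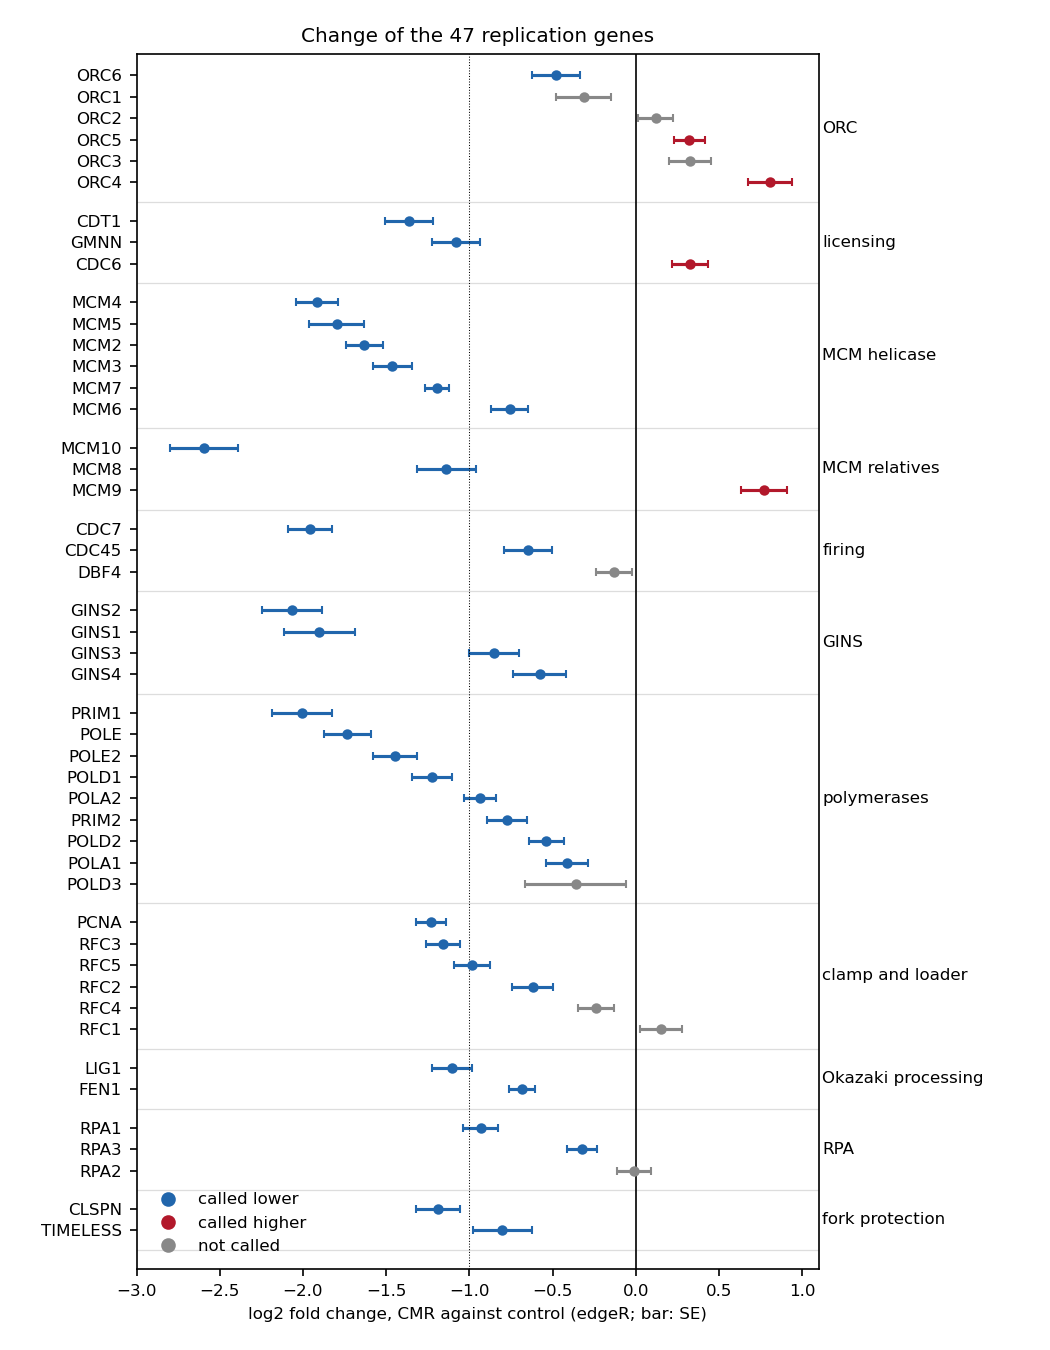
Log2 fold change (CMR against control) with its standard error for each of the 47 replication genes, ordered by role in the replication cycle; the colour gives the call. The 35 genes called lower and the 4 called higher lie on either side of the line at 0.

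**Figure D3:**
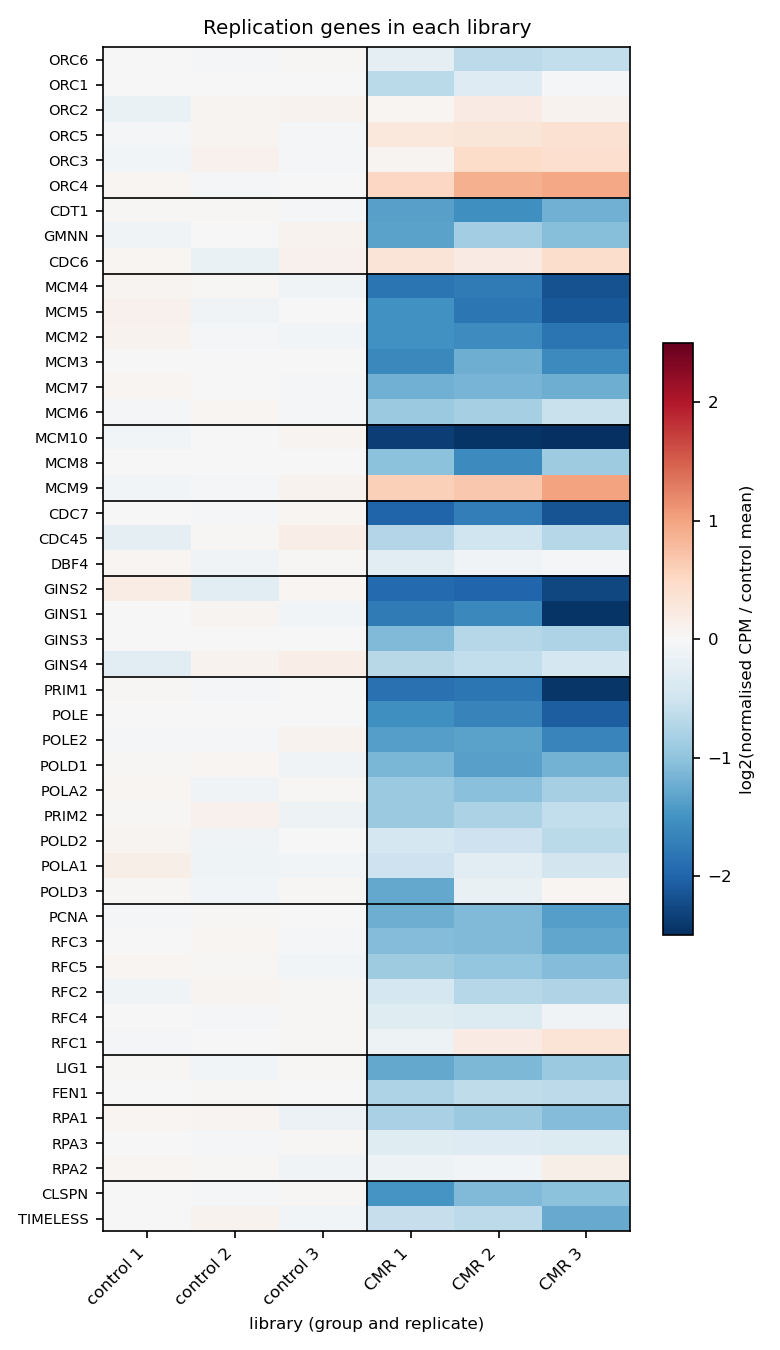
Log2 ratio of each library's normalised CPM to the control mean, with 1 row per replication gene and 1 column per library (3 control, 3 CMR). Most rows are below 0 in all 3 CMR columns, with median values of -0.93, -0.83 and -0.84.

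Of the 6 subunits of the origin recognition complex, ORC4 and ORC5 rose, ORC6 fell, and ORC1, ORC2 and ORC3 were not called, with a median log2 fold change of 0.22. Over all genes tested 18.1% fell and 20.5% rose, so 1 of 6 lower is near that share, and no difference between the complex and the other genes was tested. ORC4 (ENSG00000115947, chr2:147930397-148021604, minus strand), a subunit of the ring that holds origin DNA, was measured at 43.9, 40.9 and 42.6 CPM (counts scaled to library size by the TMM method) in control replicates 1, 2 and 3 and at 60.8, 78.5 and 83.1 with CMR. Every CMR library was above every control library, with replicate 1 the lowest of the CMR libraries. The log2 fold change was 0.80 ± 0.13 (SE, n = 3 per group), or 1.75-fold, with an adjusted p of 0.00309 in edgeR's quasi-likelihood test. Exons of ORC4 overlap those of ACVR2A and MBD5 on the genome, and the sources used here do not give the strand setting of the counting.

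ORC5 read 39.0, 41.7 and 38.3 CPM in the controls and 47.8, 49.1 and 51.9 with CMR, without overlap between the groups. This was a log2 change of 0.32 ± 0.09 (SE, n = 3 per group), with an edgeR adjusted p of 0.0321. ORC6, which helps load the helicase and is held less tightly in the complex than the others, read 31.8, 30.5 and 32.4 in the controls and 27.0, 20.1 and 20.7 with CMR, again without overlap. Its log2 fold change was -0.48 ± 0.14 (SE, n = 3 per group), with an edgeR adjusted p of 0.0328. Both calls were weak: each was lost when any 1 library other than CMR replicate 1 was left out, with edgeR adjusted p-values of 0.0630 to 0.115 for ORC5 and 0.0779 to 0.105 for ORC6.

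ORC1, the subunit that cycles with the cell cycle in human cells, read 45.8, 46.1 and 46.8 CPM in the controls and 29.1, 36.8 and 45.5 with CMR. The controls were nearly equal and the CMR libraries spread widely, all of them below the controls but replicate 3 only just. The difference of -0.31 ± 0.16 (SE, n = 3 per group) on the log2 scale did not pass (edgeR adjusted p = 0.176), and did so without CMR replicate 3 (-0.49, edgeR adjusted p = 0.0290). ORC2 read 49.4, 57.4 and 58.5 in the controls and 57.2, 63.4 and 58.8 with CMR, a log2 difference of 0.12 ± 0.10 (edgeR adjusted p = 0.418). ORC3 read 68.7, 76.6 and 69.3 in the controls and 75.1, 98.4 and 95.4 with CMR, a log2 difference of 0.33 ± 0.12 (edgeR adjusted p = 0.0769). The groups overlapped in both genes, and the CMR replicate 1 value of ORC3 was the one within the control range; without that library ORC3 passed (0.43, edgeR adjusted p = 0.0108).

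Per length of transcript, ORC3 and ORC1 were the most abundant ORC messages in the controls, at 16.7 and 12.8 FPKM, and ORC4 the least, at 4.10 ± 0.145 FPKM (SD, n = 3). With CMR, ORC4 reached 6.78 ± 0.963 FPKM and ORC6 went from 6.31 to 4.29 FPKM. The ratio of ORC6 to ORC4 in FPKM was therefore 1.54 ± 0.0381 in the controls and 0.655 ± 0.229 with CMR (SD, n = 3 each), so that the order of these subunits was turned over.

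Of the 3 licensing genes, CDT1 and GMNN fell and CDC6 rose, where 18.1% of all genes tested fell and 20.5% rose. CDT1 (chr16:88803789-88809258, plus strand), the loader that brings the helicase to ORC, read 16.0, 15.8 and 14.98 CPM in the controls and 6.06, 5.39 and 6.74 with CMR. The highest CMR library was below the lowest control. The log2 fold change of -1.36 ± 0.14 (SE, n = 3 per group) is a level 2.57-fold lower, with an edgeR adjusted p of 0.000535. GMNN (chr6:24774931-24786099, plus strand), the inhibitor of CDT1, read 44.9, 47.3 and 50.99 in the controls and 18.9, 26.2 and 22.7 with CMR. All CMR libraries were again below all controls, and the fold change was -1.08 ± 0.14 on the log2 scale (2.11-fold lower, edgeR adjusted p = 0.00130). Between the loader and its inhibitor, the ratio of CDT1 to GMNN in FPKM was 0.294 ± 0.0285 in the controls and 0.246 ± 0.0547 with CMR (SD, n = 3 each), with overlapping libraries.

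CDC6 (ENSG00000094804, chr17:40287879-40304657, plus strand), the ATPase that works with CDT1 in loading, went the other way. It read 93.5, 80.7 and 97.1 CPM in the controls and 113, 104 and 122 with CMR, and the groups did not overlap. The log2 fold change was 0.33 ± 0.11 (SE, n = 3 per group), or 1.25-fold, with an edgeR adjusted p of 0.0468. The call was marginal, since leaving out any 1 of the 6 libraries ended it, with edgeR adjusted p-values of 0.0507 to 0.154. The 2 loading factors moved apart without overlap of the libraries: the ratio of CDC6 to CDT1 in FPKM was 3.02 ± 0.357 in the controls and 9.77 ± 0.324 with CMR (SD, n = 3 each). CDC6 and CDT1, with opposite changes, both hold the E2F motif in the promoters shown above, and GMNN, which fell, does not.

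**Figure D4:**
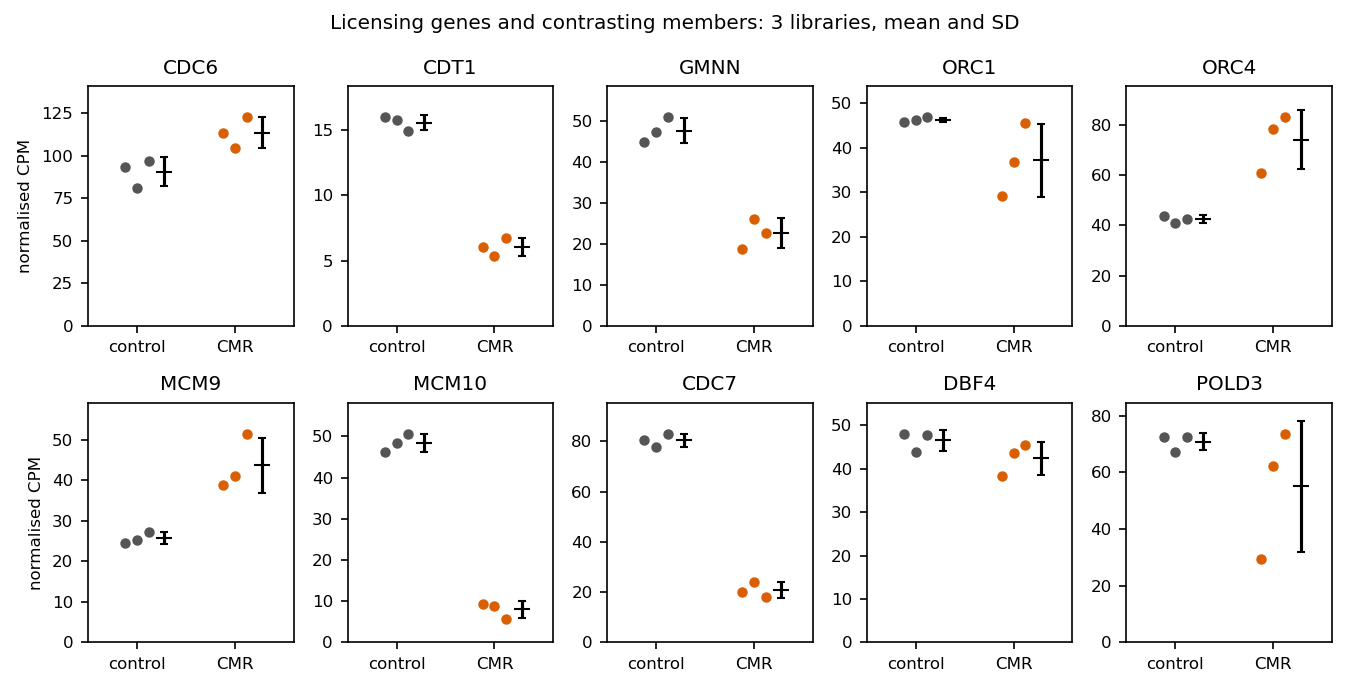
Normalised CPM in each library for 10 replication genes: CDC6, CDT1, GMNN, ORC1, ORC4, MCM9, MCM10, CDC7, DBF4 and POLD3. Control and CMR are side by side, with points for libraries and, beside them, the mean with its SD. CDC6, ORC4 and MCM9 are higher in every CMR library than in every control, and CDT1, GMNN, MCM10 and CDC7 lower.

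All 6 genes of the MCM2 to MCM7 helicase fell, against 18.1% of all genes tested. The falls were between 1.69-fold and 3.77-fold, with a median log2 fold change of -1.55. MCM4, a core subunit of the ring, fell most. It read 252, 244 and 225 CPM in the controls and 67.6, 70.4 and 53.0 with CMR, far from overlapping. The log2 fold change was -1.92 ± 0.13 (SE, n = 3 per group; edgeR adjusted p = 9.97e-05). MCM6 fell least. It read 158, 167 and 158 in the controls and 85.1, 90.5 and 110 with CMR, also without overlap. Its log2 fold change was -0.76 ± 0.11 (1.69-fold lower, edgeR adjusted p = 0.00192).

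Between these lay the other 4 subunits, each lower in every CMR library than in every control. MCM5 had a log2 fold change of -1.80 ± 0.16, MCM2 of -1.63 ± 0.11, MCM3 of -1.46 ± 0.12 and MCM7 of -1.20 ± 0.07. MCM7 had the smallest standard error of the 6: it read 326, 310 and 306 CPM in the controls and 137, 140 and 135 with CMR (edgeR adjusted p = 7.16e-05). The 6 subunits act in the ring in equal number, and their messages were not equally abundant in either group. In FPKM, MCM7 led in the controls at 61.7, followed by MCM3 at 54.3, MCM6 at 33.6, MCM2 at 30.3, MCM4 at 29.7 and MCM5 at 10.1. Summed over the 6, the level was 220 FPKM in the controls and 82.5 FPKM with CMR.

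The unequal falls changed the make-up of this pool. MCM6 made up 14.6%, 15.9% and 15.3% of the summed helicase FPKM in the 3 controls and 20.9%, 20.7% and 27.0% in the 3 CMR libraries. The groups did not overlap, and CMR replicate 3 was the highest. MCM4 made up 13.5% on average in the controls and 9.02% with CMR, MCM5 4.61% and 3.35%, and MCM7 28.1% and 31.0%. MCM5 was the least abundant of the 6 in both groups, at 2.77 FPKM with CMR.

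**Figure D5:**
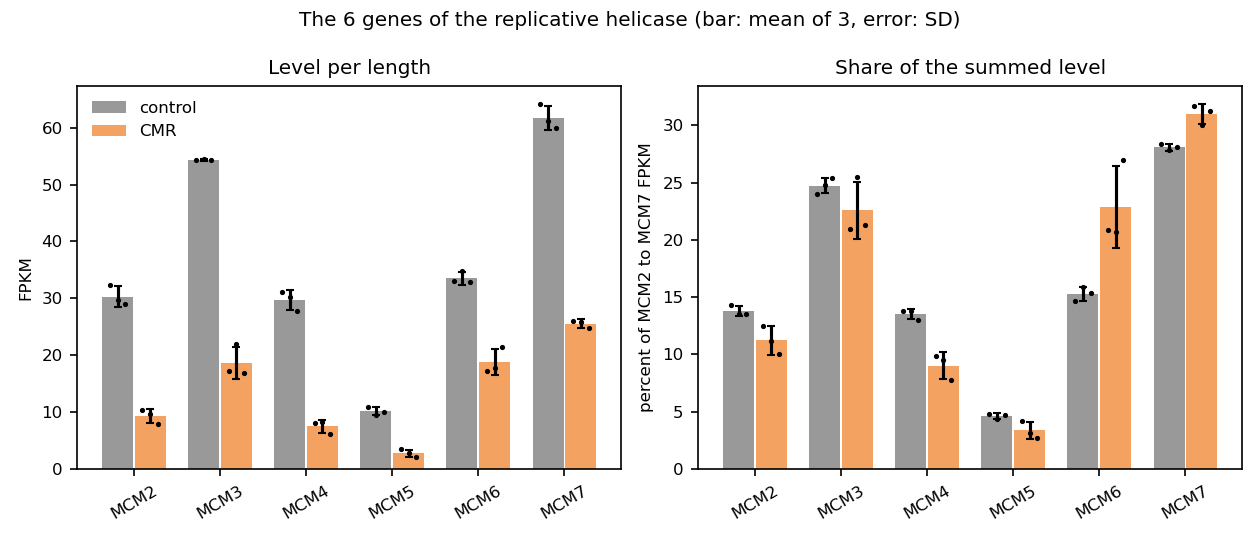
FPKM of MCM2 to MCM7 in each library (one panel) and each gene's percentage of their sum (the other panel), control and CMR side by side, with bars for the mean of 3 libraries, error bars for the SD and points for libraries. MCM6 holds between 14.6% and 15.9% of the sum in the controls and between 20.7% and 27.0% with CMR, although its own FPKM is lower.

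The 3 MCM relatives did not move together. MCM10, which is not a subunit of the ring and helps the assembled helicase to start, had the lowest log2 fold change of all 47 genes. MCM10 (ENSG00000065328, chr10:13161554-13211104, plus strand) read 46.3, 48.4 and 50.7 CPM in the controls and 9.43, 8.89 and 5.72 with CMR. Every CMR library was far below the lowest control. The log2 fold change was -2.60 ± 0.20 (SE, n = 3 per group), a level 6.04-fold lower, with an edgeR adjusted p of 0.000183. Its promoter, shown above, has no match to the 8-letter E2F motif.

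MCM8 and MCM9 form a helicase of their own that serves in recombination repair, and they moved in opposite directions. MCM8 read 124, 122 and 123 CPM in the controls and 60.5, 40.5 and 66.0 with CMR, a log2 change of -1.14 ± 0.18 (edgeR adjusted p = 0.00236). MCM9 (chr6:118813442-118935162, minus strand) read 24.5, 25.2 and 27.3 in the controls and 38.8, 40.9 and 51.5 with CMR, a log2 change of 0.77 ± 0.14 (1.70-fold higher, edgeR adjusted p = 0.00431). Neither gene's groups overlapped. In FPKM the ratio of MCM8 to MCM9 was 7.80 ± 0.468 in the controls and 2.08 ± 0.464 with CMR (SD, n = 3 each). MCM9 shares 137 exon bases with ASF1A on the opposite strand. ASF1A rose too and had a mean count 201% of that of MCM9, and without a stated strand setting reads from the shared bases cannot be assigned.

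Of the 3 firing genes, CDC7 and CDC45 fell and DBF4 was not called, where 18.1% of all genes tested fell. CDC7, the catalytic subunit of the kinase that fires origins, read 80.4, 77.8 and 83.0 CPM in the controls and 20.1, 24.1 and 18.0 with CMR. The groups were far apart, and the log2 fold change was -1.96 ± 0.13 (SE, n = 3 per group; 3.88-fold lower, edgeR adjusted p = 0.000108). DBF4, an activating subunit of the kinase, read 48.0, 43.7 and 47.8 in the controls and 38.2, 43.5 and 45.4 with CMR. These groups overlapped, and the log2 difference was -0.13 ± 0.11 (edgeR adjusted p = 0.376). The more abundant message of this pair was CDC7 in the controls and DBF4 with CMR: the ratio of DBF4 to CDC7 in FPKM was 0.452 ± 0.0138 in the controls and 1.63 ± 0.308 with CMR (SD, n = 3 each). DBF4B, the other known activator of CDC7 and a gene outside the 47, fell by 0.52 on the log2 scale (edgeR adjusted p = 0.0299).

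CDC45, which joins the ring when it is activated, fell less. It read 24.0, 28.8 and 31.6 CPM in the controls and 17.0, 19.8 and 17.1 with CMR, without overlap. Its log2 fold change was -0.65 ± 0.14 (1.57-fold lower, edgeR adjusted p = 0.0108). All 4 genes of GINS, the other part that joins the ring, fell, against 18.1% of all genes tested. Their median log2 fold change was -1.38. GINS2 fell most, from 23.4, 16.8 and 21.1 CPM in the controls to 5.28, 5.16 and 4.19 with CMR (-2.06 ± 0.18, edgeR adjusted p = 0.000275). GINS4 fell least, from 16.2, 20.9 and 22.0 to 12.2, 12.8 and 14.5 (-0.58 ± 0.16, edgeR adjusted p = 0.0249). In both genes every CMR library was below every control, with the narrower gap in GINS4. The call on GINS4 was lost without CMR replicate 1 or 2 or control replicate 2 or 3, with edgeR adjusted p-values of 0.0605 to 0.0888. GINS1 was 3.74-fold and GINS3 1.80-fold lower. The 3 GINS promoters at hand all held the E2F motif.

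Of the 9 polymerase and primase genes, 8 fell, against 18.1% of all genes tested, and 1 was not called. Their median log2 fold change was -0.94. PRIM1, the catalytic subunit of primase, fell most, from 46.7, 45.3 and 45.9 CPM in the controls to 12.6, 13.2 and 8.56 with CMR. The CMR libraries were all far below the controls, and the log2 fold change was -2.01 ± 0.18 (SE, n = 3 per group, 4.02-fold lower, edgeR adjusted p = 0.000285). PRIM1 shares 33 exon bases (1.35% of its own) with NACA on the same strand, a gene with a mean count 1440% of that of PRIM1. The other subunits of the priming complex fell less, PRIM2 by 0.77, POLA2 by 0.94 and POLA1 by 0.41 on the log2 scale. POLA1, the catalytic subunit of polymerase alpha, had the weakest of these calls (edgeR adjusted p = 0.0388). It lost the call without CMR replicate 1 or 3 or any 1 control, with edgeR adjusted p-values of 0.0709 to 0.142.

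POLE and POLE2, the subunits of polymerase epsilon among the 47, both fell. POLE, its catalytic subunit, read 182, 185 and 182 CPM in the controls and 63.6, 57.8 and 43.8 with CMR, a log2 change of -1.73 ± 0.14 (edgeR adjusted p = 0.000213). POLE2 was 2.72-fold lower. For polymerase delta, the catalytic subunit POLD1 was 2.34-fold and POLD2 1.45-fold lower. POLD3, an accessory subunit of the same enzyme, read 72.6, 67.4 and 72.4 in the controls and 29.3, 62.4 and 73.6 with CMR. CMR replicate 1 was far below the rest and replicate 3 above all controls, so the groups overlapped and the log2 difference of -0.36 ± 0.30 did not pass (edgeR adjusted p = 0.391). Without CMR replicate 1 the difference was -0.06 (edgeR adjusted p = 0.685).

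Of the clamp and its loader, PCNA, RFC2, RFC3 and RFC5 fell and RFC1 and RFC4 were not called, where 18.1% of all genes tested fell. The median log2 fold change of these 6 was -0.80. PCNA, the ring that tethers polymerases to DNA, was the most abundant message of the 47 in both groups, at 146 ± 3.04 FPKM in the controls and 59.1 ± 5.90 FPKM with CMR (SD, n = 3 each). It read 232, 242 and 240 CPM in the controls and 102, 110 and 91.7 with CMR. The groups were far apart and the log2 fold change of -1.23 ± 0.09 was the lowest of the 6 (2.35-fold lower, edgeR adjusted p = 0.000149). RFC3, RFC5 and RFC2, small subunits of the loader, were 2.23-fold, 1.98-fold and 1.54-fold lower.

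RFC1, the large subunit that distinguishes the replication loader from its variants, read 88.0, 90.6 and 91.4 CPM in the controls and 82.2, 104 and 114 with CMR. CMR replicate 1 was the lowest of the 6 libraries and the other 2 the highest, and the log2 difference was 0.15 ± 0.13 (edgeR adjusted p = 0.397); without CMR replicate 1 it was 0.27 (edgeR adjusted p = 0.0415). RFC4 read 47.4, 46.7 and 48.7 in the controls and 38.7, 37.4 and 44.9 with CMR. Its groups did not overlap, but the difference of -0.24 ± 0.11 did not pass (edgeR adjusted p = 0.122), and did so without CMR replicate 3 (-0.33, edgeR adjusted p = 0.0352).

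The genes that finish and protect the new strands were also lower. FEN1, which trims the flaps of Okazaki fragments, fell from 118, 121 and 119 CPM in the controls to 70.1, 76.9 and 75.4 with CMR (-0.68 ± 0.08 on the log2 scale, edgeR adjusted p = 0.000773). LIG1, which seals the fragments, fell from 47.9, 45.2 and 48.4 to 19.4, 21.7 and 24.7 (2.15-fold lower, edgeR adjusted p = 0.000644). Replicates were close together in both genes and the groups did not overlap. CLSPN, which carries the checkpoint signal at forks, fell from 124, 121 and 126 to 44.3, 57.9 and 60.9 (-1.19 ± 0.13, edgeR adjusted p = 0.000614). TIMELESS, which steadies the fork together with TIPIN, fell from 131, 141 and 127 to 89.2, 84.4 and 55.5 (-0.80 ± 0.18, edgeR adjusted p = 0.0105), with CMR replicate 3 lower than the other CMR libraries.

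The 3 subunits of RPA, which bind single-stranded DNA as a trimer, differed from each other. RPA1, the large subunit, fell from 197, 199 and 172 CPM in the controls to 108, 99.5 and 89.4 with CMR (-0.93 ± 0.11 on the log2 scale, edgeR adjusted p = 0.000675). RPA3, the smallest, fell from 40.9, 39.7 and 41.7 to 33.1, 32.7 and 32.0 (-0.32 ± 0.09, edgeR adjusted p = 0.0291). RPA2 read 84.6, 82.7 and 77.2 in the controls and 74.7, 77.3 and 90.7 with CMR, with a log2 difference of -0.01 ± 0.10 (edgeR adjusted p = 0.944). The RPA2 groups overlapped, with the highest and the lowest of the 6 values both in CMR libraries, and the groups of the other 2 genes did not. The call on RPA3 was lost without CMR replicate 2 or any 1 control, with edgeR adjusted p-values of 0.0741 to 0.102.

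The promoter motif was set beside these calls as a description. Among the 41 genes with a promoter at hand, the E2F motif was in 17 of the 31 that fell (54.8%), in 1 of the 4 that rose (CDC6) and in 1 of the 6 that were not called (ORC3). It was thus neither held by all genes that fell nor missing from all others. A shorter core of 7 letters (TTNNCGN, with C or G at each N) was chosen after the first counts were seen. Each form of the 8-letter motif contains this core, so the 19 promoters with the motif had to hold the core too. The core was in 32 of the 41 (78.0%), against 33.2% of the promoters of genes tested and 23.7% of all promoters of the length. By call, the core was in 27 of the 31 that fell (87.1%), in 1 of the 4 that rose and in 4 of the 6 not called. MCM10 and CDC6 each held 2 matches to this core, CDT1 held 3, GMNN 1 and ORC4 none.

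Beyond the 47, a list of 51 other replication genes was read from the same fit. This list, like the 47, was chosen with earlier results of these data known, so its counts are a description. Of these, 26 fell, 6 rose and 19 were not called, with a median log2 fold change of -0.43, and 15 fell at least 2-fold. Over all genes tested, 18.1% fell, 20.5% rose and 8.55% fell at least 2-fold. By role, 4 of 8 genes of firing and initiation fell and none rose. Of 8 genes of origin chromatin and licensing control, 4 fell and 2 rose, the latter DDB1 and CUL4B, parts of ubiquitin ligases. Of 13 further replisome genes, 6 fell and 1 rose, of 5 clamp loaders and clamp partners 4 fell, of 8 genes of chromatin assembly at forks 6 fell and 1 rose, and of 9 checkpoint genes 2 fell and 2 rose. The checkpoint counts in both directions, and the 2 of 8 that rose in origin chromatin and licensing control, are near the shares of all genes tested.

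The 3 with the lowest log2 fold changes among those called were ASF1B, DSCC1 and TOP2A. ASF1B, a histone chaperone, read 47.8, 50.3 and 41.1 CPM in the controls and 15.5, 11.98 and 8.27 with CMR (-1.96 ± 0.23 on the log2 scale, edgeR adjusted p = 0.000797). DSCC1, a subunit of an alternative clamp loader, was at -1.94 ± 0.20 (edgeR adjusted p = 0.000496), and TOP2A, the topoisomerase that untangles replicated chromosomes, at -1.89 ± 0.17 (edgeR adjusted p = 0.000308). At the other end stood ASF1A, POLE3 and RAD9A. ASF1A, the close relative of ASF1B with the same histone partners, read 38.9, 37.9 and 41.7 in the controls and 96.5, 102.8 and 95.1 with CMR (1.31 ± 0.09, edgeR adjusted p = 0.000119). The 2 chaperones thus moved in opposite directions, neither with overlap between groups. POLE3, an accessory subunit of polymerase epsilon, was at 1.26 ± 0.16 (edgeR adjusted p = 0.00107), opposite to POLE and POLE2. RAD9A, part of the checkpoint clamp, was at 0.86 ± 0.16 (edgeR adjusted p = 0.00476); its exons overlap those of PPP1CA on the opposite strand, a gene with a mean count 586% of its own.

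In all, 12 of the 47 genes have exons that overlap those of another gene with a count of at least 10% of their own, over between 0.214% and 6.70% of their exon bases. They are ORC4, MCM2, MCM9, DBF4, GINS2, PRIM1, POLD3, RFC4, RFC5, FEN1, RPA1 and RPA3.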

How the data were processed

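RNA was sequenced from 6 PANC-1 libraries, 3 with CMR and 3 control, grouped by their labels. The deposited table gives read counts per gene and FPKM (fragments scaled to transcript length and library size) made by the authors. The submitters' processing notes list HISAT2 2.0, StringTie 1.3.0 and Bowtie 0.12.2 and the mouse build mm8, with no roles; the human build and the strand setting are not given in the sources used here. Gene coordinates in the table equalled those of GENCODE 29 for 47519 of 58552 genes (81.2%) and for 22 of the 47 (46.8%); all 47 overlapped them on the same strand, so the table was read as GRCh38. Genes with no count are listed at an FPKM of 1e-04.

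The counts as deposited were tested with edgeR 4.0.16 in R 4.3.3 (quasi-likelihood test, TMM scaling, filterByExpr with a minimum count of 10 and total of 15, Benjamini-Hochberg over 19200 genes, called under 0.05); the code was tested on simulated data. Values per library are TMM-normalised CPM (counts scaled to library size), comparable within a gene; levels between genes and ratios use the deposited FPKM. The SE of a log2 fold change is the absolute unshrunk fitted log2 change divided by the square root of edgeR's F statistic. No 2 libraries were copies. Alternatives were limma 3.58.1, DESeq2 1.42.0, other scalings and filters, a replicate block and each library left out. Members and lists were chosen with earlier results of these data known. All members are named; full values were given for the licensing genes, the extremes of each subgroup and genes that rose or were not called, and for the 3 lowest and 3 highest called genes of the other list. Other genes, and any deposited analysis beyond this table, were not analysed here.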

Additional observations from a re-analysis of the deposited data

How the results depend on the processing

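Over 17 alternatives, 35 of the 47 genes kept their direction and their side of the threshold in all. The number that fell was 32 to 36 (31 to 35 with 1 library left out) and the number that fell 2-fold 18 to 23 (19 to 21). The number that rose was 2 under upper-quartile scaling, under library totals alone and without a filter, and 2 to 5 with 1 library left out. The median log2 fold change of the 47 was -0.98 under upper-quartile scaling, -0.93 with library totals, -0.89 over genes of at least 1 FPKM, -0.90 with limma on log2(FPKM + 0.1) and -0.93 to -0.84 with 1 library left out. The median of all genes was -0.08 with library totals, -0.01 over genes of at least 1 FPKM and -0.04 with limma on log2(FPKM + 0.1). It was -0.033 to 0.003 with 1 library left out. Upper-quartile scaling moved the median of all genes to -0.14, and all calls to 3250 higher and 4324 lower, against 3928 and 3476. Over the alternatives that kept all libraries, 3045 to 4324 of all genes fell and 3080 to 4257 rose. With 1 library left out, 2506 to 3734 of all genes fell and 3154 to 3977 rose. CDC6 lost its call in 14 of the 17, with adjusted p-values of 0.0356 to 0.176 over them; ORC5 lost its call in 9, POLA1 in 7, ORC6 and RPA3 in 6 each and GINS4 in 4, and RFC4 gained one in 5. ORC2 turned to -0.0121 under upper-quartile scaling, and the log2 fold change of RPA2 turned to 0.00517 with DESeq2 and was -0.105 to 0.0393 with 1 library left out, above 0 without CMR replicate 1 or 2 or control replicate 1 or 2; the cause was not tested. Deviations from the group mean correlated at 0.0595 to 0.0682 between CMR and control libraries of the same replicate number. Between those of different numbers they correlated at -0.0356 to -0.0263, and 6 of 6 libraries correlated best with their own number. Whether the libraries were paired was not tested. With the replicate block 33 of the 47 genes fell and 3 rose, and 3155 of all genes fell and 3582 rose. In that fit ORC5, POLA1 and RPA3 lost their calls (edgeR adjusted p 0.0709, 0.0810 and 0.0686). The other 51 genes gave 24 to 30 lower and 6 to 8 higher, and 21 to 27 and 6 to 9 with 1 library left out.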
